A study of Mus musculus with 8 samples.

Results

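Liver sinusoidal endothelial cells (LSECs) line the capillaries of the liver lobule. 10 genes known to mark these cells were followed by name: Stab1, Stab2, Lyve1, Clec4g, Fcgr2b, Kdr, Pecam1, Cdh5, Gpr182 and Oit3. All 10 were found in the table of 54532 genes, and all 10 passed the minimum of 0.1 mean FPKM that left 16645 genes for testing. FPKM counts fragments relative to transcript length and to a size set for each library, so it allows levels to be compared between genes of different length. In the deposited values that size equalized the median gene between libraries and was not the total of reads on genes. Bulk liver RNA was sequenced from the livers of 4 METTL3-HKD and 4 METTL3-Flox mice, and every liver had been through 1 h of ischemia followed by 6 h of reperfusion. METTL3 is the catalytic subunit of the complex that writes N6-methyladenosine on RNA. METTL3-HKD mice carried a hepatocyte-specific knockdown: they were heterozygous for a floxed Mettl3 allele, in which loxP sites flank an exon, and expressed iCre from the albumin promoter (METTL3 flox/-; Alb-iCre). Heterozygotes were used because homozygous knockouts did not survive. METTL3-Flox littermates carried the floxed allele on both chromosomes (METTL3 flox/flox), and both groups descended from founders mated with C57BL/6 mice. The age of the sequenced mice is not given in the sources used here. The albumin promoter drives iCre in hepatocytes, so the endothelial cells described here were not the targeted cells. Sham-operated livers were not analysed here, and every difference below is between genotypes after injury.

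LSECs differ from the endothelium of most organs. They have open pores called fenestrae and no continuous basement membrane, and they clear waste macromolecules from portal blood with scavenger and Fc receptors. When this differentiated state is lost in disease, a change called capillarization, the cells lose fenestrae and scavenger receptors and take on features of continuous endothelium. Of the 10 genes, Stab1 and Stab2 encode stabilins, large scavenger receptors. Lyve1 encodes a hyaluronan receptor, Clec4g a C-type lectin, Fcgr2b the inhibitory receptor for immune complexes, and Gpr182 an atypical chemokine receptor. Oit3 encodes a secreted protein with a zona pellucida domain. Kdr encodes VEGF receptor 2, the main receptor for vascular endothelial growth factor A. Pecam1 and Cdh5 encode PECAM-1 and VE-cadherin, adhesion molecules at the contacts between endothelial cells, and are shared by endothelium of nearly all vessels.

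In the METTL3-HKD livers 3 of the 10 genes were lower with an adjusted p under 0.05 in limma (Oit3, Gpr182 and Stab1), and 0 were higher. Across all genes tested 6.63% were called lower and 9.05% higher by the same rule. The falls were modest: the mean of Oit3 fell by 31.5%, that of Gpr182 fell by 23.0% and that of Stab1 fell by 22.3%, and none of the 10 genes reached a log2 fold change of 1. Pecam1 and Cdh5, the pair shared with other endothelium, lay on the other side of 0, at log2 differences of 0.39 and 0.37 that did not pass the test. The median log2 fold change of the 10 genes was -0.22. The calls depended on how the libraries were scaled. The deposited FPKM values had already been scaled so that the median gene did not differ between groups (median log2 fold change -0.0028 over all genes tested). When each library was instead scaled to its total reads on genes, that median became 0.20, the median of the 10 genes became -0.0021, the share of all genes called higher was 13.8% and the share called lower 2.24%, and none of the 10 genes was called (0 of 10). Fewer cells of a type and less RNA per cell cannot be told apart in bulk tissue.

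**Figure D1:**
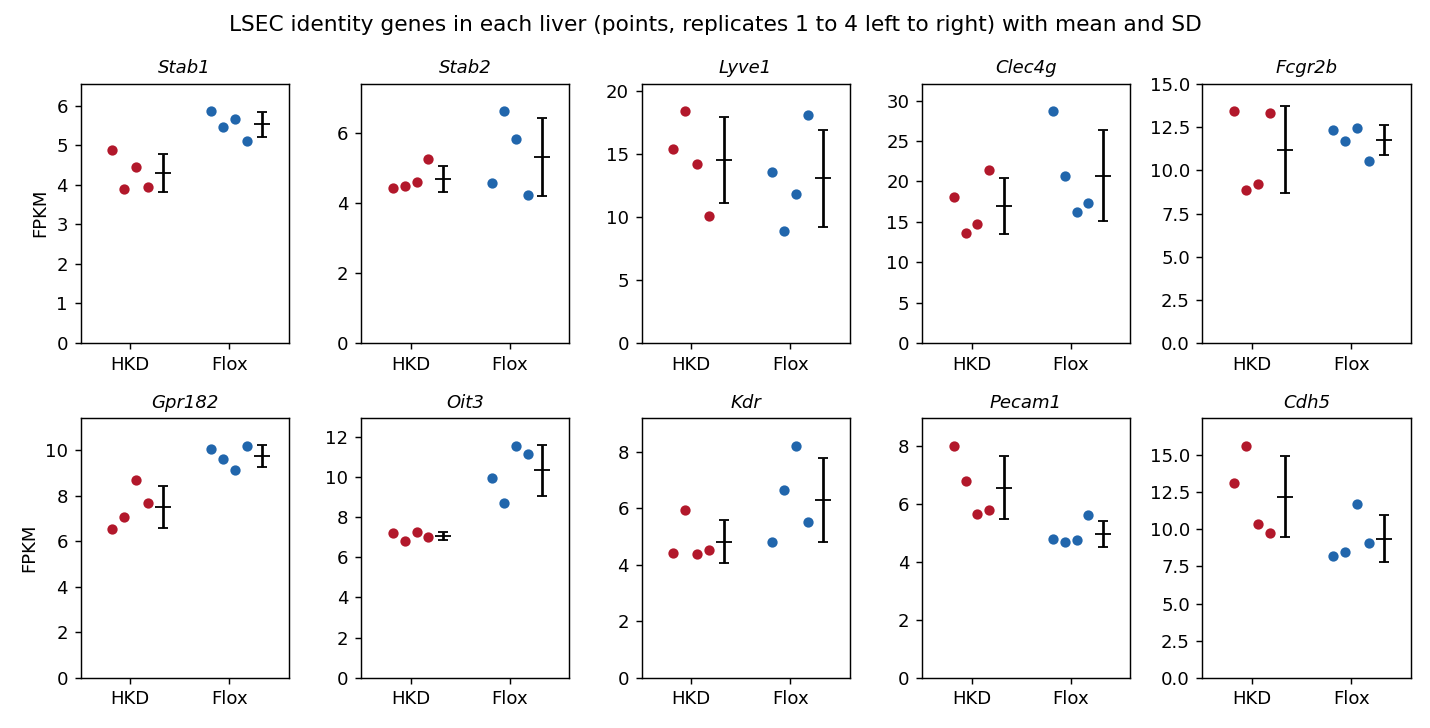
Level of each LSEC identity gene in FPKM (vertical axis, from 0) in the 4 METTL3-HKD (red) and 4 METTL3-Flox (blue) livers, with the group mean and SD as a black bar. All METTL3-HKD points lie below all METTL3-Flox points for Stab1, Gpr182 and Oit3, and above them for Pecam1.

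The sequence upstream of the transcription start was matched in RefSeq (GRCm38.p6) for 5 of the 10 genes: Stab1, Stab2, Clec4g, Kdr and Fcgr2b. Endothelial genes are commonly bound by ETS-family factors, and LSEC differentiation is known to depend on the GATA factor Gata4. The 250 bases before the start were therefore searched on both strands for these letters. The ETS form was AGGAAG, or the same with C as its first letter (CGGAAG). The GATA form was AGATAA, with T allowed as the first letter and G allowed as the last. Of 32851 promoter windows of the same length, 39.2% held an ETS match and 26.5% a GATA match. Stab1 held 2 ETS matches, Stab2 held 1, and Clec4g held 3 ETS matches, of which one pair overlaps, and 1 GATA match. The windows of Kdr and Fcgr2b held neither set of letters. The RefSeq start used for a window can lie inside the gene span given below. The Fcgr2b window (chr1:170976072-170976321) lies wholly within that span. The Stab2 window (chr10:87007943-87008192) lies partly within it, and the Kdr window (chr5:75978456-75978705) only at its edge. These windows therefore do not describe the bases before those spans alone. The windows of Stab1, the scavenger receptor gene that was called lower, and of Clec4g, the most abundant of the 10 genes, are shown 5′ to 3′ on the minus strand with the matches in capitals, at chr14:31168642-31168891 and chr8:3720652-3720901. These matches are a description of the letters and not evidence of binding.

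Stab1: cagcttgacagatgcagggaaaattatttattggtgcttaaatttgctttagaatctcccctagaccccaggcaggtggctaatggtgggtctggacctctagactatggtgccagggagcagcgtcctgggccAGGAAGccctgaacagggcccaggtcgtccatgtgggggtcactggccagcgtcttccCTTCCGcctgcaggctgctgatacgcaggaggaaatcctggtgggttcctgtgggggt
Clec4g: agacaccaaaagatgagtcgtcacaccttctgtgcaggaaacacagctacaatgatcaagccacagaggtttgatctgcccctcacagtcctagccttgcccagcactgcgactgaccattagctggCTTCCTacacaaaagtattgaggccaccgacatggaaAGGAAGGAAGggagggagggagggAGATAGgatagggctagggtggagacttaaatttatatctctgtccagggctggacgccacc

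Among the scavenger receptors, Stab1 (ENSMUSG00000042286, chr14:31139013-31168641, minus strand) was measured at 4.89, 3.88, 4.46 and 3.94 FPKM in METTL3-HKD livers 1 to 4. The METTL3-Flox livers 1 to 4 stood at 5.85, 5.47, 5.66 and 5.11 FPKM. The groups did not overlap. The mean was 4.29 ± 0.474 FPKM (SD, n = 4) against 5.52 ± 0.319, a log2 fold change of -0.36 (SE 0.104, limma adjusted p = 0.0472). This call stood close to the threshold and held in 7 of 18 alternative analyses. It was lost when any liver but METTL3-HKD liver 1 was left out (adjusted p from 0.0619 to 0.117). The exact permutation test gave p = 0.0286, the smallest value that 4 livers against 4 allow and the one that any gene without overlap receives. When libraries were scaled to reads on genes the log2 fold change was -0.15 (adjusted p = 0.447). Stab1 shares 112 exonic bases with Nt5dc2 on the opposite strand, which was expressed at 2.35 FPKM, and the strand setting used in counting is not given in the sources used here.

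Its relative Stab2 (ENSMUSG00000035459, chr10:86841198-87008025, minus strand) did not pass the test. METTL3-HKD livers 1 to 4 gave 4.43, 4.50, 4.62 and 5.25 FPKM. In METTL3-Flox livers the level ranged more widely, at 4.59, 6.62, 5.83 and 4.24 FPKM, so that Flox livers 1 and 4 fell inside or below the HKD range. The log2 difference was -0.16 (95% interval -0.49 to 0.18, adjusted p = 0.506), and its sign turned to 0.06 when libraries were scaled to reads on genes. Without METTL3-Flox liver 2, the highest, the difference was -0.05.

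Lyve1 (ENSMUSG00000030787, chr7:110850607-110863239), the hyaluronan receptor, varied within both groups more than between them. It stood at 15.4, 18.4, 14.2 and 10.1 FPKM in METTL3-HKD livers and at 13.6, 8.86, 11.8 and 18.1 FPKM in METTL3-Flox livers. The log2 difference was 0.16 (95% interval -0.37 to 0.70, adjusted p = 0.673), and without METTL3-Flox liver 2, the lowest, it was -0.0062.

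Clec4g (ENSMUSG00000074491, chr8:3707064-3720651), the lectin, had the highest mean level of the 10 genes in both groups. Its FPKM values were 18.1, 13.6, 14.7 and 21.4 in METTL3-HKD livers and 28.7, 20.6, 16.2 and 17.4 in METTL3-Flox livers. The ranges overlapped widely, with a log2 difference of -0.27 (95% interval -0.73 to 0.18, adjusted p = 0.384). Without METTL3-Flox liver 1, the highest, the difference was -0.11.

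Fcgr2b (ENSMUSG00000026656, chr1:170958617-170976547), the Fc receptor that takes up immune complexes in LSECs, formed a high and a low pair in the METTL3-HKD livers. Livers 1 and 4 stood at 13.4 and 13.3 FPKM, and livers 2 and 3 at 8.88 and 9.19 FPKM. The METTL3-Flox livers lay between these pairs, at 12.3, 11.7, 12.5 and 10.5 FPKM. The log2 difference was -0.09 (95% interval -0.44 to 0.26, adjusted p = 0.722), and its sign turned to 0.12 when libraries were scaled to reads on genes and to 0.0093 without METTL3-HKD liver 2. Of the windows of 50 bases along its transcripts, 6.95% also occur in other genes, most often in Fcgr3, so a part of its reads may have been counted elsewhere.

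Gpr182 (ENSMUSG00000058396, chr10:127747276-127751732), the atypical chemokine receptor, fell. METTL3-HKD livers 1 to 4 were at 6.55, 7.08, 8.69 and 7.70 FPKM. METTL3-Flox livers 1 to 4 were at 10.1, 9.63, 9.12 and 10.2 FPKM, all above the highest METTL3-HKD liver. The mean was 7.51 ± 0.922 FPKM (SD, n = 4) against 9.75 ± 0.485, with a log2 fold change of -0.38 (SE 0.104, limma adjusted p = 0.0401). The call held in 7 of 18 alternative analyses and was lost when any liver but METTL3-HKD liver 3 was left out (adjusted p from 0.0666 to 0.0998). The log2 fold change under scaling to reads on genes was -0.17 (adjusted p = 0.294). Gpr182 shares 74 exonic bases with Zbtb39 on the opposite strand, which was expressed at 2.40 FPKM.

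Oit3 (ENSMUSG00000009654, chr10:59422958-59441778) showed the largest fall of the 10 genes. Its FPKM values in METTL3-HKD livers 1 to 4 were nearly equal, at 7.20, 6.81, 7.27 and 7.02. The METTL3-Flox livers stood at 9.94, 8.72, 11.5 and 11.1 FPKM, with no overlap between the groups. The mean was 7.08 ± 0.204 FPKM (SD, n = 4) against 10.3 ± 1.27, with a log2 fold change of -0.53 (SE 0.103, limma adjusted p = 0.0133). The call held in 17 of 18 alternative analyses, including all 8 that left out a liver. The exception was scaling to reads on genes, where the log2 fold change was -0.32 (adjusted p = 0.138). Of the windows of 50 bases along its transcripts, 0 were found in another gene.

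Every METTL3-HKD liver was below every METTL3-Flox liver for 3 of the 10 genes, Oit3, Gpr182 and Stab1, while 9.95% of all genes tested had that separation. The reverse separation held for 1 of the 10 genes, Pecam1, against 12.7% of all genes tested. Oit3, Gpr182, Stab1 and Pecam1 therefore had the same p in the exact permutation test, 0.0286.

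**Figure D2:**
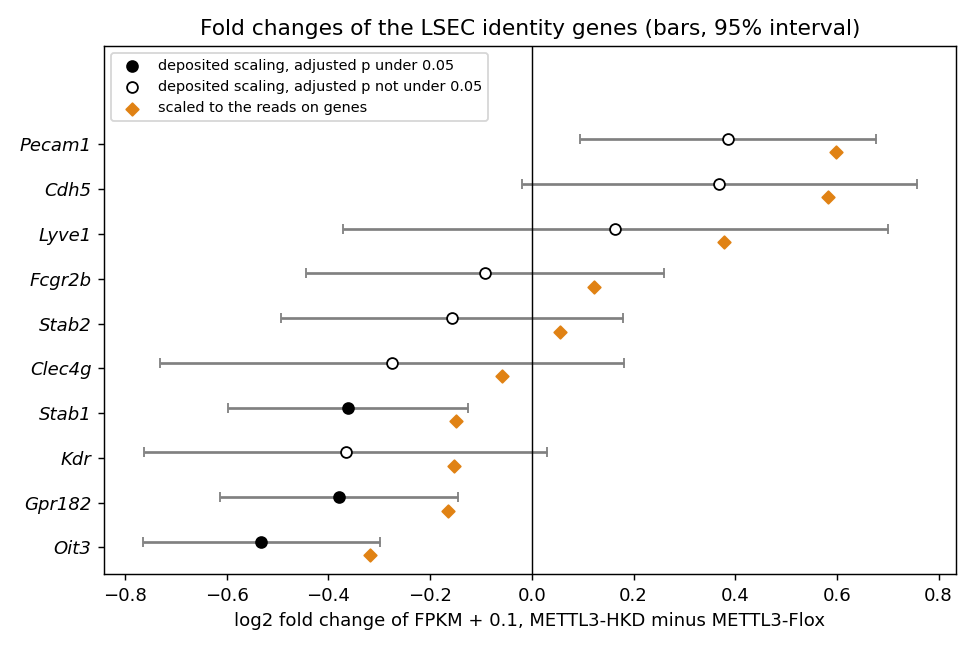
Log2 fold change of each gene, METTL3-HKD minus METTL3-Flox, on the log2(FPKM + 0.1) scale (horizontal axis). Circles with bars are values and 95% intervals under the deposited scaling, filled where the limma adjusted p was under 0.05 (Stab1, Gpr182, Oit3), and diamonds are values after scaling to reads on genes, which lie to the right of the circles for all 10 genes.

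The VEGF receptor gene Kdr (ENSMUSG00000062960, chr5:75932827-75978458) was at 4.40, 5.94, 4.37 and 4.52 FPKM in METTL3-HKD livers. METTL3-Flox livers gave 4.82, 6.66, 8.20 and 5.51 FPKM. METTL3-HKD liver 2 stood apart from the other 3 and was the one that entered the Flox range. The log2 difference of -0.37 (95% interval -0.76 to 0.03) was close in size to those of Stab1 and Gpr182, but the wider spread gave an adjusted p of 0.188. Without METTL3-Flox liver 3, the highest, the difference was -0.23.

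Pecam1 (ENSMUSG00000020717, chr11:106654217-106750628) gave 8.0, 6.81, 5.65 and 5.80 FPKM in METTL3-HKD livers. METTL3-Flox livers 1 to 3 were close together at 4.79, 4.70 and 4.75 FPKM, and liver 4 was at 5.62, just under the lowest METTL3-HKD liver. The mean was 6.57 ± 1.09 FPKM (SD, n = 4) against 4.96 ± 0.435, a log2 difference of 0.39 (95% interval 0.09 to 0.68). The adjusted p of 0.0729 did not pass, and under scaling to reads on genes the difference was 0.60 (adjusted p = 0.0522).

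Cdh5 (ENSMUSG00000031871, chr8:104101625-104144511, plus strand) was at 13.1, 15.6, 10.3 and 9.78 FPKM in METTL3-HKD livers and at 8.24, 8.47, 11.7 and 9.06 FPKM in METTL3-Flox livers. METTL3-Flox liver 3 overlapped the METTL3-HKD range. The log2 difference was 0.37 (95% interval -0.02 to 0.76, adjusted p = 0.175), and without METTL3-HKD liver 2, the highest, it was 0.24.

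The order of the mean levels differed between groups mainly through these adhesion genes. In METTL3-Flox livers it ran Clec4g, Lyve1, Fcgr2b, Oit3, Gpr182, Cdh5, Kdr, Stab1, Stab2 and Pecam1. Only the neighbours Cdh5 and Kdr had ranges over livers that did not overlap. In METTL3-HKD livers the order ran Clec4g, Lyve1, Cdh5, Fcgr2b, Gpr182, Oit3, Pecam1, Kdr, Stab2 and Stab1, and only the neighbours Fcgr2b and Gpr182 were separate. Cdh5 went from place 6 to place 3 and Pecam1 from place 10 to place 7. Within single livers, Lyve1 stood above Cdh5 and Pecam1 above Kdr in 4 of 4 METTL3-HKD livers although their ranges overlapped. The other neighbouring pairs with overlapping ranges were not in the same order in every liver of the group.

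A ratio of genes within one liver does not depend on how the libraries were scaled, so each of the other 8 genes was divided by Pecam1 and by Cdh5 in the same liver. Relative to Pecam1, 4 of the 8 genes (Stab1, Gpr182, Oit3 and Kdr) were lower in every METTL3-HKD liver than in every METTL3-Flox liver, a separation that 23.9% of all other genes tested also showed for this denominator, which was itself higher in every METTL3-HKD liver. Relative to Cdh5, 3 of the 8 genes (Stab1, Oit3 and Kdr) were, against 14.5% of all other genes tested. None of the ratios separated the groups in the other direction (0 of 8 for each denominator), against 4.98% of all other genes tested for Pecam1 and 4.34% for Cdh5. The log2 ratio of Oit3 to Pecam1 was 0.12 ± 0.239 (SD, n = 4) in METTL3-HKD livers against 1.05 ± 0.165 in METTL3-Flox livers. The log2 ratio of Stab1 to Pecam1 was -0.61 ± 0.204 against 0.16 ± 0.197. The log2 ratio of Kdr to Cdh5 was -1.33 ± 0.199 against -0.59 ± 0.196. Kdr had not passed the test on its own level, and these ratios are given with no p because the genes and denominators were chosen with earlier results of these data known. A ratio shows that its genes did not change equally, not which of them changed.

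**Figure D3:**
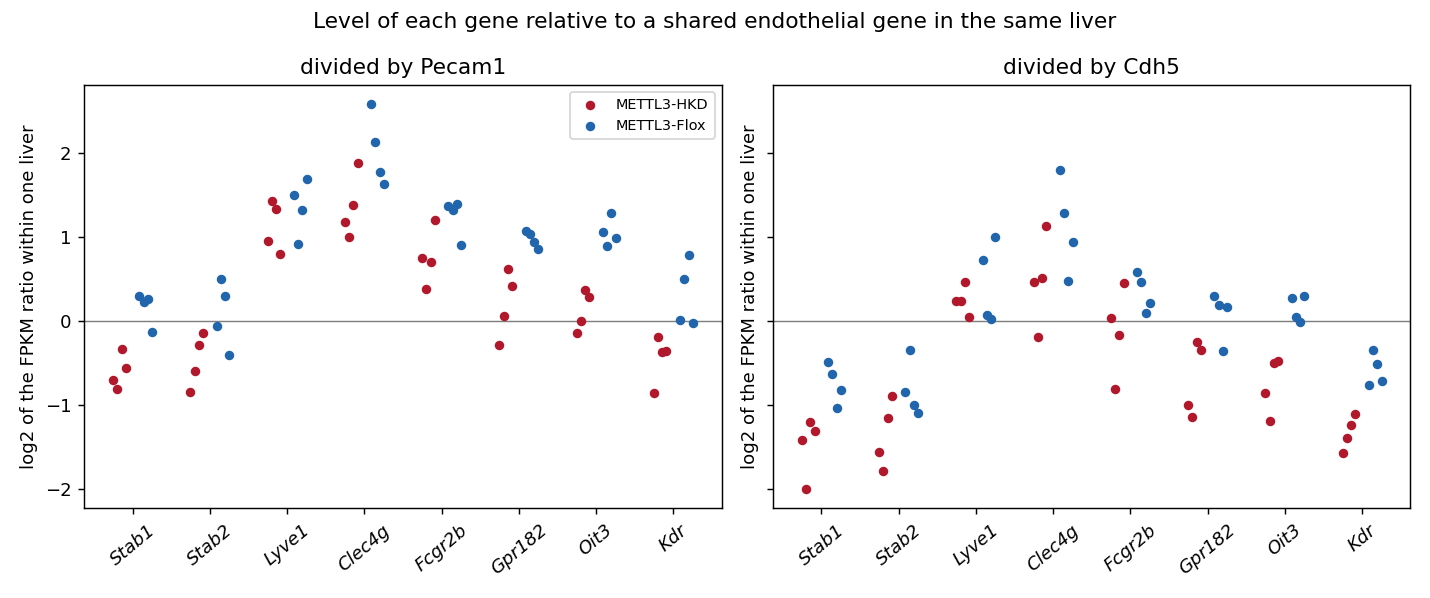
Log2 of the FPKM ratio of each gene to Pecam1 (left) or Cdh5 (right) in the same liver (vertical axis), with one point per liver, METTL3-HKD in red and METTL3-Flox in blue. The red points of Stab1, Oit3 and Kdr lie below all blue points in both panels, and those of Gpr182 only in the left panel.

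The 10 genes did not move as one unit from liver to liver. After the group means were removed, Pearson's r between members over the 8 livers had a median of -0.05 over 45 pairs, with 25 pairs below 0 and 4 above 0.5. The highest value was for Kdr and Cdh5 (r = 0.75) and the next for Clec4g and Fcgr2b (r = 0.64). The lowest was for Stab2 and Lyve1 (r = -0.89), which was also the farthest from 0, and the next lowest for Cdh5 and Gpr182 (r = -0.70). Stab1 and Stab2 had an r of -0.05. These values describe 8 livers whose libraries share one scaling, and carry no p.

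Other cells of the injured liver also express some of these genes, and their markers differed between the groups. Stab1, Lyve1 and Fcgr2b are expressed by macrophages as well. The 11 markers of Kupffer cells, the resident macrophages, summed to between 137 and 274 FPKM in METTL3-HKD livers and between 269 and 656 FPKM in METTL3-Flox livers. Of these 11, 7 were lower and 0 higher, with a median log2 fold change of -0.96, and under scaling to reads on genes 1 was lower. Pecam1 is also made by neutrophils and platelets. All 7 neutrophil markers were higher, and their sum was between 331 and 1612 FPKM in METTL3-HKD livers against 12.9 to 44.5 FPKM in METTL3-Flox livers. Of the 4 platelet markers tested 1 was higher (Ppbp), and the platelet sum was 3.28 to 10.5 FPKM against 1.17 to 3.35 FPKM. METTL3-HKD liver 1 had the highest neutrophil sum, the highest platelet sum and the highest Pecam1 level. METTL3-HKD liver 4 had higher sums than METTL3-HKD liver 2 (neutrophil 545 against 380 FPKM, platelet 7.09 against 3.28 FPKM). Its Pecam1 level was lower, at 5.80 against 6.81 FPKM. Pecam1 passed in 0 of 18 alternative analyses. Its log2 difference was 0.29 without METTL3-HKD liver 1 (limma adjusted p = 0.162) and 0.36 without METTL3-HKD liver 2 (limma adjusted p = 0.154). Fcgr2b is expressed by B cells too. Of the 4 B cell markers tested 0 passed, and their sum stood at 0.532 to 1.06 FPKM against 0.698 to 1.26 FPKM. Lymphatic endothelium, which expresses Lyve1, had 1 of 4 markers higher (Pdpn) and summed to 14.9 to 21.8 FPKM against 13.7 to 21.3 FPKM. Most of that sum was Prox1, which hepatocytes also express (11.1 to 19.5 FPKM against 10.3 to 16.0 FPKM), so the sum says little about lymphatic vessels. The call of Pdpn held in 8 of 18 alternative analyses. The part of these cells in the values of the 10 genes was not tested. Markers of stellate cells, which lie beside the sinusoid, gave 1 higher (Des) and 2 lower (Lrat and Colec11) of 7. Under scaling to reads on genes Lrat was no longer called (adjusted p = 0.0555), and the call of Des held in 7 of 18 alternative analyses. Of the 6 hepatocyte markers 0 were called, but all 6 had a negative log2 difference, with a median of -0.37 (-0.15 under scaling to reads on genes). Over all genes tested 9.05% were called higher and 6.63% lower.

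**Figure D4:**
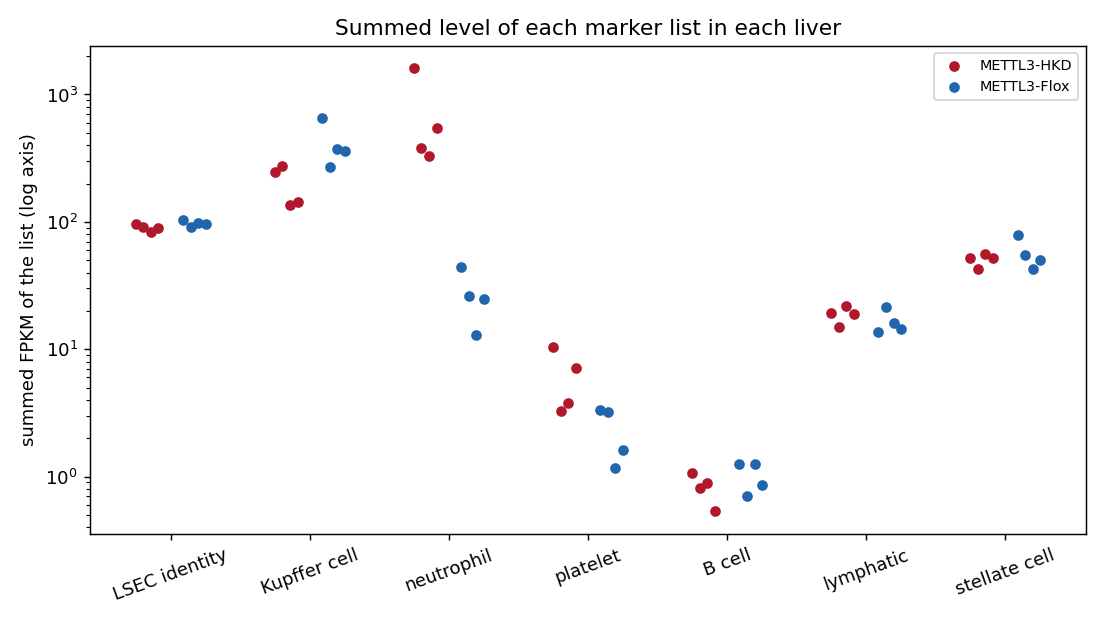
Summed FPKM of each marker list (vertical log axis; for B cells the 4 markers tested) in each liver, METTL3-HKD in red and METTL3-Flox in blue. The neutrophil sums of the groups are far apart, while the sums of the 10 LSEC identity genes, 83.5 to 95.5 against 91.4 to 103 FPKM, overlap.

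Libraries held 15861245 to 18434488 reads on genes, and each of the 10 genes had between 351 and 1563 reads per liver, which puts the counting error of a single value at 2.53% to 5.34%. The SD of Oit3 over the METTL3-HKD livers, 2.89% of its mean, was below its counting error, so this spread is smaller than counting alone gives on average. All 10 marker genes were thus well detected in every liver. Mettl3 itself, whose knockdown defines the groups, was at 1.56, 1.39, 1.17 and 1.20 FPKM in METTL3-HKD livers and at 1.84, 1.16, 1.45 and 1.54 FPKM in METTL3-Flox livers. These ranges overlapped (log2 fold change -0.16, adjusted p = 0.556). Whole-liver RNA therefore did not separate the genotypes by the targeted gene, and the group names used here rest on the labels. The paper reports specific loss of METTL3 in the liver of METTL3-HKD mice. The deletion removes an exon in hepatocytes only, while these values count the whole gene in all cells of the liver.

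10 further lists of endothelial genes gave the surroundings of these values. They held 90 genes of the table, of which 87 were tested: 13 were higher and 4 lower, with a median log2 fold change of 0.18. Over all genes tested 9.05% were called higher and 6.63% lower, and the counts of the single lists below are to be read against these shares. Under scaling to reads on genes the counts were 20 higher and 2 lower, against 13.8% and 2.24% of all genes tested, and the median was 0.39. Of 9 further LSEC genes tested, 2 were lower and 0 higher. Mrc1, the mannose receptor, fell from 10.8 ± 0.730 FPKM in METTL3-Flox to 6.41 ± 0.724 in METTL3-HKD livers (SD, n = 4, log2 fold change -0.75, limma adjusted p = 0.00451). The values were 6.72, 5.92, 5.73 and 7.29 FPKM in METTL3-HKD livers against 9.95, 10.7, 11.7 and 10.9 FPKM. Dnase1l3, a secreted DNase, fell from 7.97 ± 0.214 to 4.61 ± 0.451 FPKM (log2 fold change -0.78, limma adjusted p = 0.00357). Both falls held in all 18 alternative analyses, scaling to reads on genes included, where the log2 fold changes were -0.54 and -0.57. Mrc1 is also expressed by macrophages and Dnase1l3 by macrophages and dendritic cells, and their part in these values was not tested.

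Endothelial genes that respond to injury or that mark continuous endothelium were among the 13 that rose. Of 10 genes of continuous endothelium 4 were higher and 0 lower. Esm1, a proteoglycan of sprouting endothelium, rose from 0.468 ± 0.154 to 2.77 ± 0.664 FPKM (log2 fold change 2.36, limma adjusted p = 0.00207). The basement membrane collagens Col4a1 and Col4a2 rose with log2 fold changes of 0.92 and 0.69 (limma adjusted p = 0.0107 and 0.0203). Collagen IV is made by stellate cells as well. Apln, the ligand of the apelin receptor, stood at 0.273 to 0.584 FPKM in METTL3-HKD livers and at 0 to 0.0393 FPKM, or 0 to 2 reads, in METTL3-Flox livers. Cd34, Plvap and Vwf, which are in the same list, did not pass. Cd34 had a log2 difference of 0.60 (limma adjusted p = 0.162) and Plvap one of -0.32 (limma adjusted p = 0.318).

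Of 10 angiocrine ligands, factors by which LSECs act on neighbouring cells, 3 were higher and 0 lower. Angpt2, the ligand that opposes Tie2 signalling, was the most changed, at 7.67, 11.7, 2.45 and 5.10 FPKM in METTL3-HKD livers. In METTL3-Flox livers it was at 0.0572, 0.252, 0.481 and 0.202 FPKM (log2 fold change 4.23, limma adjusted p = 0.00339). Angpt2 was also the 1 gene called among 5 tested genes of the angiopoietin-Tie system, in which Tek, the Tie2 receptor, had a log2 difference of 0.00. Kitl, the ligand of Kit, and Hgf, hepatocyte growth factor, rose with log2 fold changes of 0.61 and 0.58 (limma adjusted p = 0.0242 and 0.0304), and stellate cells are a source of Hgf too. The Wnt ligands of the sinusoid, Wnt2 and Wnt9b, did not pass.

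Of 4 endothelial activation genes 2 were higher. Sele, E-selectin, rose from 0.0976 ± 0.0823 to 2.34 ± 0.965 FPKM and Selp, P-selectin, from 0.565 ± 0.247 to 2.82 ± 1.5 FPKM (log2 fold changes 3.60 and 2.04, limma adjusted p = 0.00224 and 0.0159). P-selectin protein is also stored in platelets. METTL3-HKD liver 1, with the highest platelet sum, had the highest Selp level at 4.62 FPKM. METTL3-HKD liver 3 had a higher platelet sum than METTL3-HKD liver 2 (3.75 against 3.28 FPKM) but less Selp (1.14 against 2.16 FPKM). The part of platelets in the Selp values was not tested. Of 8 Notch genes tested 1 was higher, the ligand Jag1 (log2 fold change 1.03, adjusted p = 0.0265). Of 13 endothelial transcription factors 1 was higher, Klf4, a factor induced by shear stress (log2 fold change 1.55, adjusted p = 0.0108). Gata4 (log2 difference 0.17) did not pass. The counts of the Notch and transcription factor lists are near the 9.05% of all genes tested that were called higher. Which cells of the bulk liver the Jag1 and Klf4 values came from was not tested.

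The ligands and other receptors of the VEGF system gave 1 higher and 1 lower of 9 tested. Vegfb fell from 7.57 ± 1.36 to 4.61 ± 1.09 FPKM (log2 fold change -0.72, limma adjusted p = 0.0325). Pgf, placental growth factor, was called higher but stood near the detection limit, at 0.114 to 0.377 FPKM against 0 to 0.0485 FPKM. Vegfa, the main ligand of the Kdr product, had a log2 difference of 0.04 and did not pass. Of 11 junction partners of Cdh5 0 passed in either direction, and the median log2 fold change of the list was 0.07. Of 16 pan-endothelial genes 1 was higher (Ecscr, log2 fold change 0.64) and 1 lower (Clec14a, log2 fold change -0.84), with a median log2 fold change of -0.02. Both pan-endothelial counts are near the shares of all genes tested, 9.05% higher and 6.63% lower. The call of Ecscr held in 9 of 18 alternative analyses and that of Clec14a in 7 of 18. Under scaling to reads on genes Clec14a (-0.63, adjusted p = 0.0668) and Vegfb (-0.50, adjusted p = 0.115) were no longer called. Leaving out METTL3-Flox liver 3 lowered the count of higher genes over the 10 lists from 13 to 7, and leaving out METTL3-HKD liver 1, METTL3-HKD liver 2 or METTL3-Flox liver 4 lowered it to 8. Each of these omissions lowered the count of lower genes from 4 to 2.

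**Figure D5:**
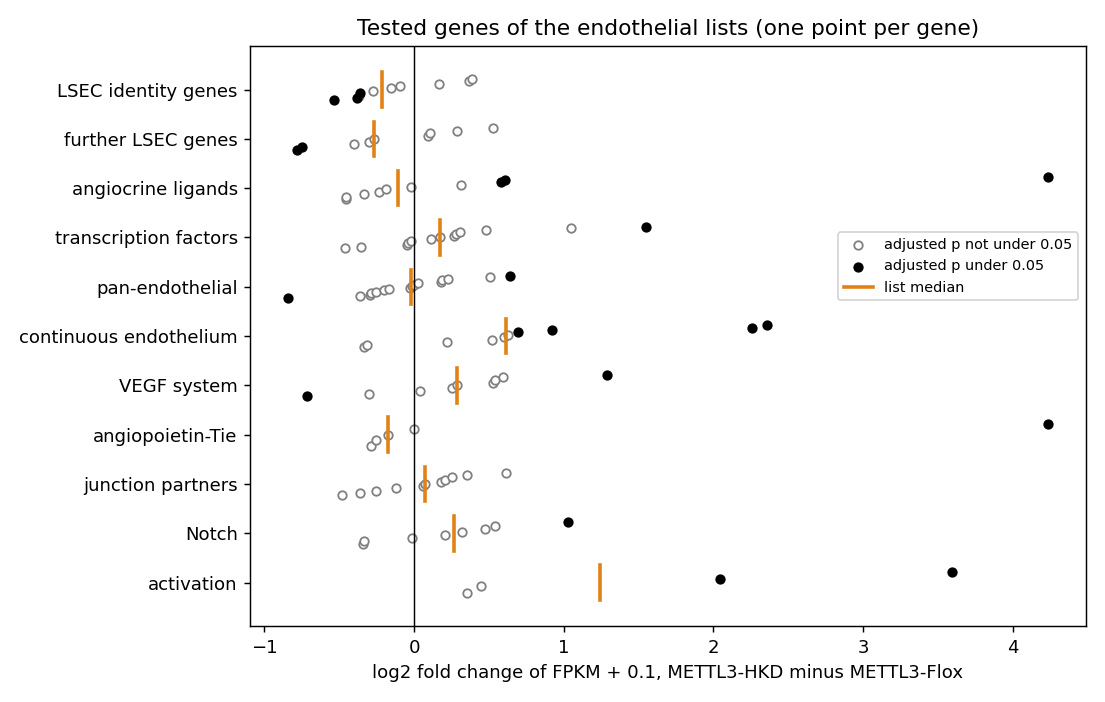
Log2 fold change, METTL3-HKD minus METTL3-Flox (horizontal axis), of each tested gene in the 10 LSEC identity genes (top) and the 10 other endothelial lists, with genes at a limma adjusted p under 0.05 filled and the list median as an orange bar. The identity genes lie between -0.53 and 0.39, and Angpt2, which stands in 2 lists, lies at 4.23.

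Outside these lists, the genes whose levels most resembled the mean of the 10 standardized members over the 8 livers were Gm5345 (Pearson's r = 0.97), Smim22 (0.97), Tmc6 (0.97), Asah1 (0.96) and Kctd2 (0.95), taken from 10586 candidates averaging 1 FPKM or more. Gm5345 is annotated as a processed pseudogene. Group means were not removed here, so a difference between the groups enters these r values. Gm5345, Smim22, Tmc6 and Asah1 were themselves called lower in METTL3-HKD livers. Their log2 fold changes were -0.46, -1.55, -0.47 and -0.46 (limma adjusted p from 0.0203 to 0.0375), and Kctd2 was not called (-0.24). With so many genes compared over 8 livers these are the upper end of a wide distribution, and no p is given.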

How the data were processed

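The authors deposited 1 table of FPKM values per gene for 8 livers, 4 METTL3-HKD and 4 METTL3-Flox. RNA was extracted with an RNeasy kit and libraries were made with a SMARTer mRNA kit. The submitters' processing notes name the builds GRCm38 and mm10, and the aligner, annotation and strand setting are not given in the sources used here. FPKM times gene length gave whole reads for 100% of values within 0.05, which returned 15861245 to 18434488 reads on genes per liver. The deposited scaling equalized the median gene between libraries.

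Groups followed the labels. Genes averaging 0.1 FPKM or more were tested on log2(FPKM + 0.1) with limma 3.58.1 in R 4.3.3 (empirical Bayes with a mean-variance trend), with Benjamini-Hochberg adjustment over all 16645 genes. Fold changes on this scale understate those of low genes. Single values were also tested by the exact two-sided permutation test, whose smallest p is 0.0286. Separate mice are named in the labels, but no litter, batch or day. Replicate numbers did not pair the livers: residuals of livers with the same number correlated at 0.071, -0.084, -0.013 and -0.034.

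The members and all gene lists were chosen with earlier results of these data known, so no p is adjusted over a list. Genes named are the 10 members, Mettl3, of each list at most 3 called genes per direction with the largest change, and the 5 genes most like the members. Col4a2, and the genes named as not passing (Tek, Wnt2, Wnt9b, Cd34, Plvap, Vwf, Gata4, Vegfa and Prox1), were chosen after their values were seen. Alternatives changed the pseudocount (1 FPKM), the minimum (none, or 1 FPKM), the scaling (median of ratios, or total reads on genes), the trend, the sample weights, the test (voom on the rebuilt reads), the block, the gene types, and left out each liver in turn. Shared transcript windows and exon overlaps were read from GENCODE M21. One marker of a list is not reported here.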

Additional observations from a re-analysis of the deposited data

Results flagged for a closer look

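Among 20 groups of 4 livers (10 genes in each genotype), 2 held a liver far from the other 3 by Dixon's criterion, which chance alone meets in about 1 of 20 groups. Kdr stood at 5.94 FPKM in METTL3-HKD liver 2, against 4.37 to 4.52 FPKM in the other METTL3-HKD livers. Pecam1 stood at 5.62 FPKM in METTL3-Flox liver 4, against 4.70 to 4.79 FPKM in the other METTL3-Flox livers.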

How the results depend on the processing

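Of 180 member values recomputed in 18 alternatives, 153 kept their direction and their side of the threshold, 23 kept the direction and lost the call, and 4 changed sign. With libraries scaled to reads on genes 0 members were called (Stab1 -0.15, Gpr182 -0.17, Oit3 -0.32 on the log2 scale), Stab2 turned to 0.055 and Fcgr2b to 0.12, and the other endothelial lists had 20 higher and 2 lower. With no minimum, with no trend and with the replicate block 1 member was called, Oit3, while Stab1 stayed at -0.36 (adjusted p = 0.0634, 0.0721 and 0.0746) and Gpr182 at -0.38 (adjusted p = 0.0525, 0.0694 and 0.098). The replicate block, tried although the numbers did not pair the livers, left the fold changes as they were. The other lists had 2 lower with no minimum and with no trend. Leaving out 1 liver at a time gave 1 to 2 members called, all of them lower, Oit3 each time. The fold changes then ran from -0.42 to -0.32 for Stab1, from -0.45 to -0.32 for Gpr182, from -0.61 to -0.48 for Oit3, from -0.0062 to 0.33 for Lyve1 from -0.19 to 0.0093 for Fcgr2b, from -0.26 to -0.05 for Stab2, from -0.39 to -0.11 for Clec4g, from -0.48 to -0.23 for Kdr, from 0.24 to 0.48 for Cdh5 and from 0.29 to 0.45 for Pecam1, and the other lists had 7 to 15 higher and 2 to 6 lower. The lowest count of 7 came without METTL3-Flox liver 3. The cause of these changes was not tested. Apln and Pgf had 0 to 2 reads and Sele 2 to 9 reads per METTL3-Flox liver, which limits how well the size of their changes is known.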
